A study of Mus musculus with 4 samples.

Results

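Expression of 36 genes that carry signals from Toll-like receptors (TLRs) to NF-kappaB and to interferon regulatory factors was followed in sorted smooth muscle cells (SMCs) of the mouse lung. The genes were taken as a fixed list of symbols, and all 36 were found among the 21462 genes of the deposited table. RNA-seq had been performed on 4 libraries, 2 from Tet3 mutant and 2 from control C57BL/6 mice, to ask how loss of *Tet3*, which encodes a 5-methylcytosine dioxygenase, alters the SMC transcriptome. Mutant animals carried floxed *Tet3* alleles together with a tamoxifen-inducible Cre driven by the alpha-smooth-muscle-actin promoter, so that recombination was directed to alpha-SMA-expressing cells, and a Cre-dependent tdTomato reporter. By the study's methods, control animals of its experiments lacked the floxed alleles but had the Cre transgene, the reporter or both, and the labels give them as WT. For these libraries, sorting of tdTomato+ cells required both. Tamoxifen was injected daily from adulthood, and the interval to RNA isolation is not given in the labels. Lungs were digested, CD45+ and erythroid cells were depleted with beads, and live tdTomato+ cells were sorted, so that airway and vascular SMCs of the whole lung were pooled. Each group comprised 2 independent animals. The study used both sexes, and the labels do not give that of each library.

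The NF-kappaB pathway couples receptors of microbial products and inflammatory cytokines to transcription. Ligand-bound TLRs and interleukin-1 receptors recruit IRAK kinases and the ubiquitin ligase TRAF6, which activate the TAK1 kinase complex. TAK1 in turn activates the IkappaB kinases (IKKs), and phosphorylated IkappaB proteins are degraded, which frees NF-kappaB dimers to enter the nucleus. A parallel, noncanonical branch runs through the kinase NIK to the subunits NFKB2 and RELB, while TBK1 and IKK-epsilon activate interferon regulatory factors. Many inhibitors of the pathway are themselves targets of NF-kappaB and close a negative feedback loop. SMCs respond to several of these ligands, but the same genes are strongly used by leukocytes.

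Because several members are textbook targets of their own pathway, their promoters were searched for the 10-base kappaB consensus on both strands. RefSeq promoter sequences (GRCm38.p6, from 250 bases before to 50 bases after the annotated start) were at hand for 30 of the 36 members. Of these, 9 held at least 1 match (30%), against 5.14% of the 27025 genes with such an entry. The 9 were *Map3k7*, *Cyld*, *Tnfaip3*, *Rel*, *Tnip1*, *Nfkbia*, *Traf3*, *Nfkbie* and *Nfkb2*. A match is a run of letters and not a measured binding site. The core of the interferon-stimulated response element, GAAANNGAAA on either strand, occurred in 1 member, *Ripk1* (3.33%, against 3.99% of genes), and no promoter region of a member held both. The sequences shown are those of the 4 members with a kappaB match and the highest mean expression, written 5′ to 3′ on the strand of the gene, with the matches in capitals. The match began 92 bases before the start in *Map3k7* (chr4:31963857-31964156, plus strand) and 155 bases before it in *Cyld* (chr8:88696778-88697077, plus strand). In *Nfkb2* (chr19:46304487-46304786, plus strand), overlapping matches began 39 and 38 bases before the start and a separate one 11 bases before it. In *Tnip1* (chr11:54962891-54963190, minus strand), 3 overlapping matches began 58, 57 and 56 bases before the start.
Map3k7: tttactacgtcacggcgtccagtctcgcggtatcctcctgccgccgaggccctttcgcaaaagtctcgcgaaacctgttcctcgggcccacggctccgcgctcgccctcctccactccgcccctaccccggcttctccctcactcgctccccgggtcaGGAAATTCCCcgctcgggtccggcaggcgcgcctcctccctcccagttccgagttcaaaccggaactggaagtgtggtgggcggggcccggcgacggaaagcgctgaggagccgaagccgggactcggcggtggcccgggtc
Nfkb2: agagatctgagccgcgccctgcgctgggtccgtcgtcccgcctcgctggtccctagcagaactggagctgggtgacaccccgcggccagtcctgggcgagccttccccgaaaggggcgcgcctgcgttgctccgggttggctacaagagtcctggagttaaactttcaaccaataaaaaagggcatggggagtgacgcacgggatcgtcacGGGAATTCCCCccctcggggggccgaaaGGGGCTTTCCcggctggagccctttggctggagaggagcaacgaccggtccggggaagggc
Cyld: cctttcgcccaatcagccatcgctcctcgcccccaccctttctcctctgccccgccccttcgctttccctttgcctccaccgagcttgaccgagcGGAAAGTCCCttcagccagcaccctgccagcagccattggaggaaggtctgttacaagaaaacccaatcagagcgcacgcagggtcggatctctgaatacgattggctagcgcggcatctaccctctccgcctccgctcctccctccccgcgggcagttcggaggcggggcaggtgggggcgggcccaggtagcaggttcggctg
Tnip1: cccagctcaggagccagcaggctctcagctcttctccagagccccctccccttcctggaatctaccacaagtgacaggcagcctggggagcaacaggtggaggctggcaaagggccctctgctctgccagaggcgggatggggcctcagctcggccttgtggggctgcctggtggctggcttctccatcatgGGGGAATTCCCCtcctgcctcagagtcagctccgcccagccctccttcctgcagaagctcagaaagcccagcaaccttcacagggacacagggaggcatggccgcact

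Expression is given as normalized counts, which are reads per gene after scaling between libraries and rounding by the authors, always with replicate 1 before replicate 2. A log2 fold change is the difference of the mean log2(normalized count + 1), Tet3 mutant minus control, tested with limma, a linear model that shares the estimate of spread across genes. Adjusted p-values cover all genes tested. The reads assigned to genes were estimated at 6.32 M to 7.56 M per library. *Tet3* had 1847 and 1926 normalized counts in the controls against 1534 and 1444 in the mutants. Both mutants lay below both controls, at a log2 fold change of -0.34 (unadjusted p = 0.0184, adjusted p = 0.681, limma). A count over the whole gene does not single out the floxed part. Control 2 stood apart from the other 3 libraries in sex-linked transcripts, with 2 normalized counts of *Xist* against 5214 to 6781, and 774 of the Y-linked *Ddx3y* against 0. These values mark control 2 as male and the other 3 libraries as female, so that sex was not balanced between the groups. The part of sex in the members' values was not tested. SMC markers were present in every library, at a summed 10762 and 11305 normalized counts over 10 genes in the controls and 12895 and 11870 in the mutants. Markers of other lung cells were present as well, at 13128 to 14204 over 7 endothelial genes and 13221 to 16552 over 6 fibroblast genes. The common leukocyte gene *Ptprc*, which encodes CD45, had 2136 and 1364 in the controls against 2674 and 1885 in the mutants although CD45+ cells had been depleted.

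All 36 members were well expressed, with normalized counts between 114 and 1661 in single libraries, and all passed the filter on low values. Differences between genotypes were small. None of the 36 passed an adjusted p of 0.05 in limma, and the same held for all 16659 genes tested (0% called, smallest adjusted p 0.0902 over all genes and 0.681 over the members). At an unadjusted p under 0.05 there was 1 member, *Irf5*, which was higher in the mutants, against 6.68% of all genes (3.83% higher and 2.85% lower). No member differed by more than 1.5-fold in either direction, a size that 16.9% of all genes exceeded. Those genes include many of lower expression than the members. The median absolute log2 fold change was 0.11 over the members, against 0.14 in 8050 genes with means in the same range. The fold changes were above 0 for 15 members, against 49% of all genes, and below 0 for 21, with a median log2 fold change of -0.02, against -0.01 over all genes tested.

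The precision of the comparison differed between members. The 95% interval of the fold change lay within 1.5-fold on both sides for 22 members and within 2-fold for 34, so that larger changes than these lay outside the interval. For the other 14 members a 1.5-fold change in at least 1 direction lay inside it. The standard error of the log2 fold change ranged from 0.10 to 0.51, with a median of 0.14. The widest intervals belonged to *Traf1* and *Ikbke*, whose control libraries differed most from each other. In the plot of fold changes these 2 genes stand out by the length of their lines.

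**Figure D1:**
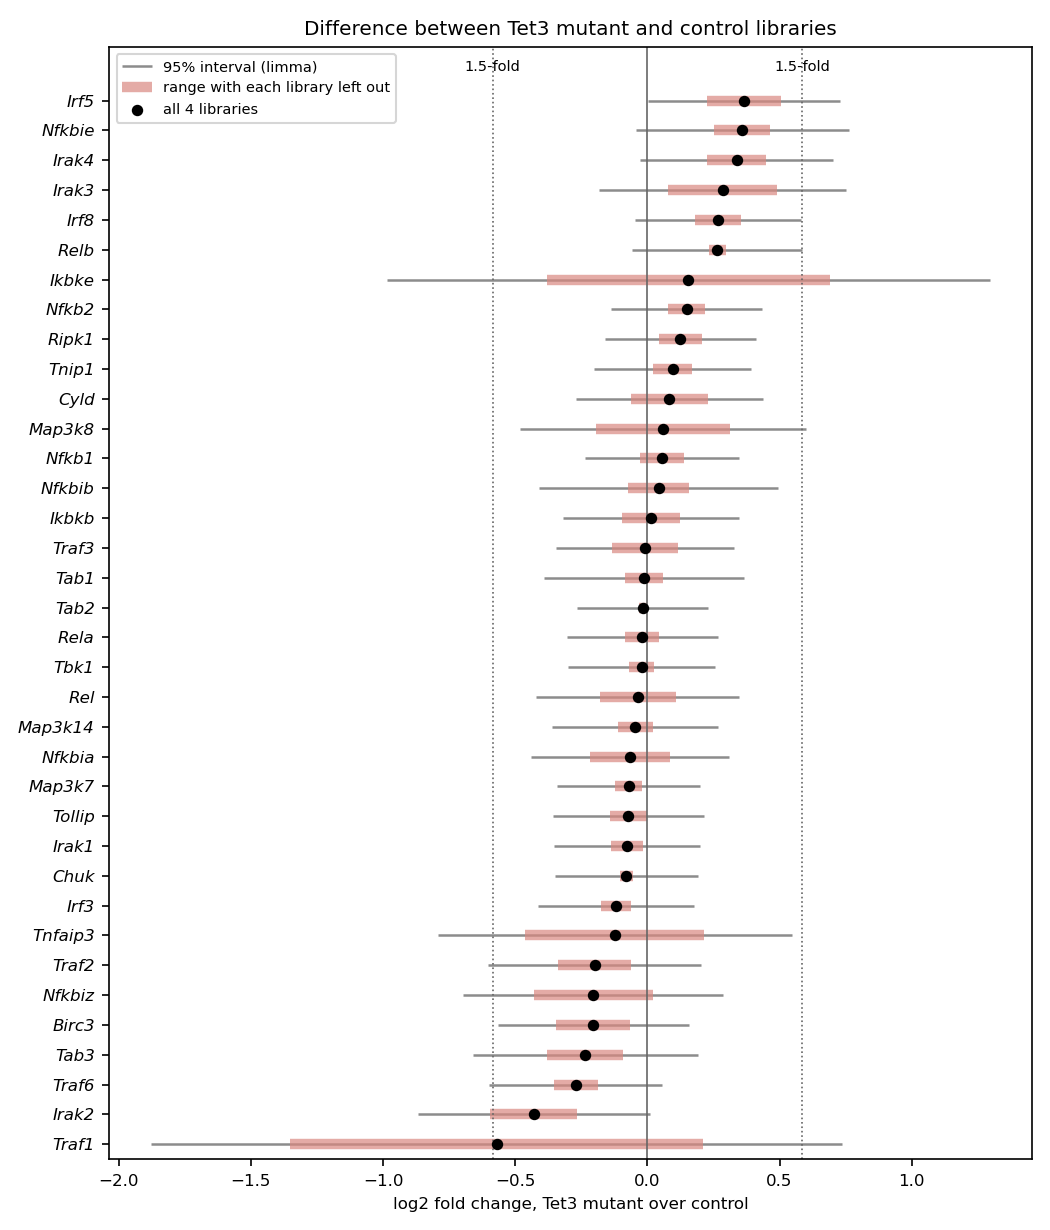
Log2 fold change of each member, Tet3 mutant over control, on the log2(normalized count + 1) scale (x axis), with members ordered by that value (y axis). Black points give the value over all 4 libraries, grey lines its 95% interval from limma, and red bars the range when each library was left out in turn. Dotted lines mark 1.5-fold. All 36 points lie inside the dotted lines, and the *Irf5* interval alone lies on one side of 0.

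Both mutant libraries lay above both controls for 8 members and below them for 9. Together these 17 members made up 47.2% of the set, against 39% of all genes tested (19.6% higher and 19.5% lower). The number of such members was 14 when the libraries were scaled to equal totals, a setting for which the share of all genes is not given. The members with higher values in both mutants were *Irf5*, *Irf8*, *Nfkbie*, *Irak4*, *Irak3*, *Relb*, *Nfkb2* and *Ripk1*. Those with lower values were *Irak2*, *Traf6*, *Traf2*, *Birc3*, *Tab3*, *Irf3*, *Chuk*, *Irak1* and *Map3k7*. Grouped by role, the median log2 fold change was -0.20 for the receptor-proximal proteins, -0.03 for the TAK1 complex and MAP3 kinases, 0.00 for the IKKs, 0.06 for the NF-kappaB subunits, -0.01 for the IkappaB proteins, 0.08 for the negative regulators and 0.27 for the interferon regulatory factors. The receptor-proximal group went from -0.33 without control 1 to -0.06 without control 2.

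**Figure D2:**
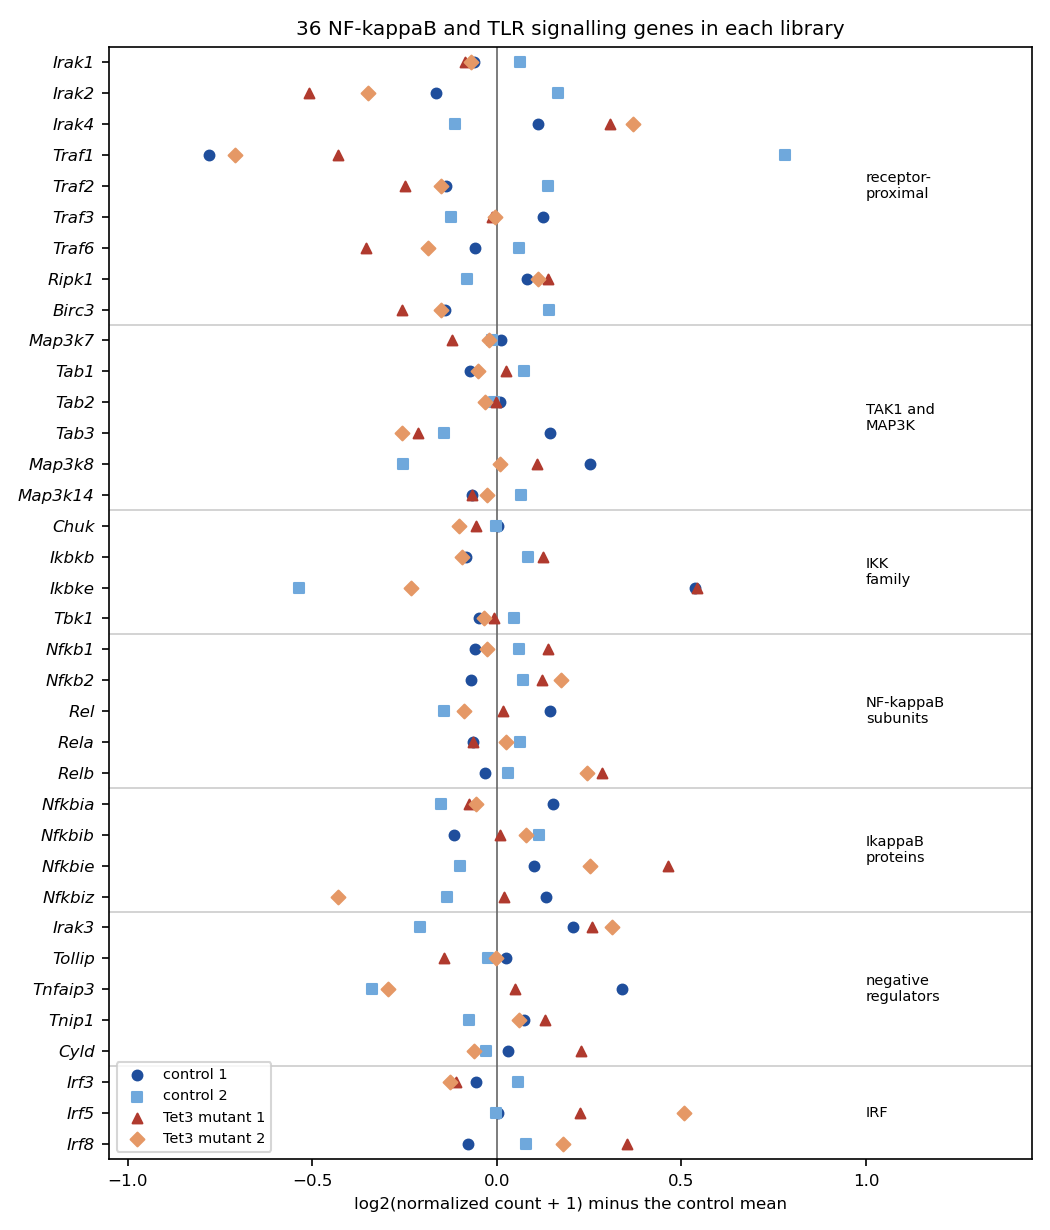
Level of each of the 36 members (y axis, grouped by role) in each library, as log2(normalized count + 1) minus the mean of the 2 control libraries (x axis). Blue symbols are controls and red or orange symbols Tet3 mutants. Most members lie within 0.5 of the control mean in all 4 libraries, and control 2 of *Traf1* lies farthest above it.

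Among the 3 interferon regulatory factors, 2 were higher in both mutants and 1 was lower. Over all genes tested, 19.6% were higher in both mutants and 19.5% lower. *Irf5* (ENSMUSG00000029771, chromosome 6, 29526625 to 29541871), a transcription factor activated downstream of TLRs in myeloid cells, had 445 and 443 normalized counts in the controls against 519 and 631 in the mutants. The controls were nearly equal, and both mutants lay above them. Means of 444 ± 1.41 (SD, n = 2) and 575 ± 79.2 (SD, n = 2) gave a 1.29-fold difference with a 95% interval of 1.00 to 1.66. This was 0.37 ± 0.14 (SE) on the log2 scale, at an unadjusted limma p of 0.0490 and an adjusted p of 0.681. The unadjusted limma p was 0.0526 with the replicate block, 0.0978 without the mean-variance trend and 0.0540 with a minimum mean of 1, and leaving out mutant 2 brought the log2 fold change to 0.22. Of its exon bases, 14.1% were shared with *Tnpo3* on the opposite strand. Reads overlapping several genes were excluded by the authors, and the use of strand in counting is not stated. Reads from the shared bases may therefore be missing from this value. *Irf8* (chromosome 8, 120736358 to 120756694), which directs the development of monocytes and dendritic cells, had 846 and 944 in the controls against 1141 and 1012 in the mutants. The groups did not overlap, and the log2 fold change was 0.27 ± 0.12 (SE, unadjusted p = 0.0816, adjusted p = 0.681, limma). *Irf3*, the ubiquitous factor that TBK1 phosphorylates, was slightly lower in both mutants, at 527 and 570 against 508 and 502, with a log2 fold change of -0.12 and an interval from -0.41 to 0.18.

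Markers of the leukocytes that use these factors were read beside them. Over 10 macrophage and monocyte genes the summed level was 7222 and 6861 in the controls against 8121 and 8972 in the mutants. Of the 10, 9 had a log2 fold change above 0 (49% of all genes tested), and 8 were higher in both mutants (19.6% of all genes). The complement genes *C1qb*, at 480 and 492 against 605 and 683, and *C1qa*, at 396 and 389 against 493 and 552, had the smallest p of that list, and neither passed the adjustment (adjusted p = 0.681, limma). The 9 dendritic cell genes overlapped between the groups in their sum, with 4770 and 5980 in the controls against 6068 and 5704 in the mutants. Of these, 7 had a log2 fold change above 0 and 2 below, with a median of 0.35 that was -0.02 without control 1. In both mutants 3 were higher (19.6% of all genes), among them *Xcr1* at 84 and 130 against 170 and 221. All markers of both lists had counts above 0 in every library. The part of these cells in the levels of *Irf5* and *Irf8* was not tested, and in bulk RNA more cells of a type and more RNA per cell cannot be told apart.

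**Figure D3:**
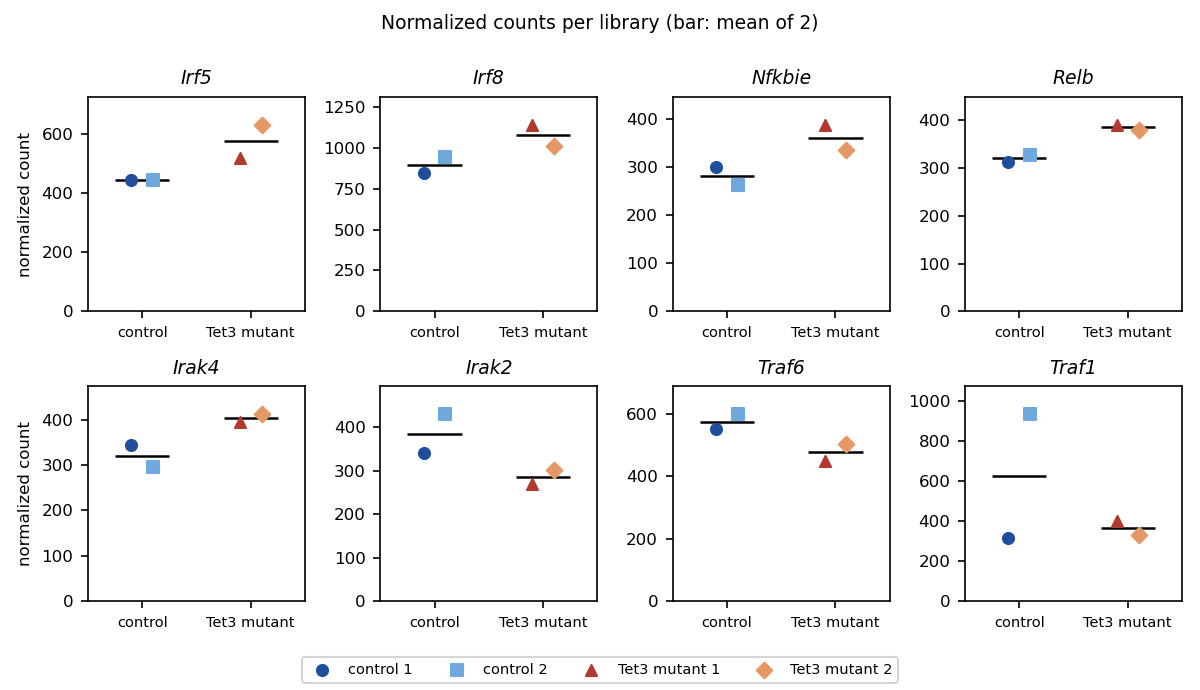
Normalized counts (y axes, from 0) of 8 members in the 2 control and 2 Tet3 mutant libraries, with a bar at the mean of each pair. The mutant libraries lie above both controls for *Irf5*, *Irf8*, *Nfkbie*, *Relb* and *Irak4* and below them for *Irak2* and *Traf6*, whereas the 2 controls of *Traf1* differ between 315 and 932.

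The receptor-proximal group comprised kinases and ubiquitin ligases that assemble at activated receptors. *Irak4* (chromosome 15, 94543643 to 94581815), the first kinase bound by the adaptor MyD88, had 345 and 295 normalized counts in the controls against 395 and 412 in the mutants. That was a log2 fold change of 0.34 ± 0.14 (SE, unadjusted p = 0.0637, adjusted p = 0.681, limma). The kinase that IRAK4 phosphorylates, IRAK1, was at 773 and 842 in the controls against 760 and 769 in the mutants. *Irak1* is X-linked, and the value of -0.08 on the log2 scale became -0.02 without control 2. *Irak2* (chromosome 6, 113638467 to 113695026), which sustains TRAF6 activation late in the TLR response, had 342 and 430 in controls against 269 and 301 in mutants. At a log2 fold change of -0.43 ± 0.17 (SE, unadjusted p = 0.0529, adjusted p = 0.681, limma), it had the lowest value among members whose groups did not overlap. It was -0.26 without control 2 and -0.59 without control 1.

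The TRAF proteins link receptors to kinases, mostly as ubiquitin ligases. *Traf6* (chromosome 2, 101678429 to 101701669), which builds the ubiquitin chains that recruit TAK1, had 551 and 599 normalized counts in the controls against 449 and 505 in the mutants, with a log2 fold change of -0.27 and a standard error of 0.13 (unadjusted p = 0.0873, adjusted p = 0.681, limma). *Traf2*, which serves TNF receptors, was at 315 and 382 against 292 and 312, and *Birc3*, a ubiquitin ligase of the same receptor complex, at 629 and 765 against 580 and 624. The log2 fold changes were -0.20 for *Traf2* and -0.21 for *Birc3*, and both were -0.06 without control 2. *Traf3*, which keeps NIK levels low, had 661 and 556 in the controls against 601 and 604 in the mutants, both between the controls. *Ripk1*, a kinase and scaffold at the TNF receptor, had 928 and 829 against 965 and 948, with a log2 fold change of 0.12. *Traf1*, an NF-kappaB-inducible member without ligase activity, had 315 in control 1 and 932 in control 2, against 402 and 331 in the mutants. The log2 fold change of -0.57 had a standard error of 0.51 and turned to 0.21 without control 2, whereas it was -1.35 without control 1, so that 1 library decided its sign.

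The TAK1 complex and the MAP3 kinases had log2 fold changes between -0.24 and 0.06. TAK1 itself, encoded by *Map3k7*, was at 866 and 851 normalized counts in the controls against 789 and 846 in the mutants. *Tab2*, which binds ubiquitin chains for the complex, had the narrowest interval of all members, with 1174 and 1161 against 1166 and 1141 and a log2 fold change from -0.27 to 0.23. *Tab1*, which binds and activates TAK1, was at 242 and 268 against 259 and 246. The X-linked *Tab3*, a relative of *Tab2*, was at 305 and 250 against 238 and 231, and the value of -0.24 on the log2 scale was -0.09 without control 1 and -0.38 without control 2. *Map3k8*, which couples TLRs to ERK, was at 313 and 220 against 283 and 264. *Map3k14*, which encodes NIK, was at 437 and 479 against 437 and 449. Both mutant libraries thus lay between the controls for *Map3k8* and *Tab1*, and the groups also overlapped for *Tab2* and *Map3k14*.

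Of the 4 IKK family kinases, 3 had log2 fold changes between -0.08 and 0.02. *Chuk* (IKK-alpha), which acts in the noncanonical branch, had 655 and 653 normalized counts in the controls against 629 and 609 in the mutants, and *Ikbkb* (IKK-beta), the main IkappaB kinase, had 978 and 1099 against 1130 and 971. *Tbk1* was at 649 and 693 against 667 and 655. The intervals of their log2 fold changes ran from -0.35 to 0.19, from -0.32 to 0.35 and from -0.30 to 0.26. *Ikbke*, the inducible relative of *Tbk1* that is abundant in leukocytes, varied within both groups, at 241 and 114 in the controls against 242 and 141 in the mutants. The log2 fold change of 0.16 had an interval from -0.99 to 1.30, and was -0.38 without control 2 or 0.69 without control 1. Summed T and NK cell markers were 1036 in control 1 and 308 in control 2, against 1094 and 1118 in the mutants, and summed B cell markers were 457, 144, 445 and 225 in the same order. The B cell sums and *Ikbke* share their order in part, with control 2 and mutant 2 low. The general leukocyte gene *Ptprc* had the same order of libraries as *Ikbke*, at 2136 and 1364 in the controls against 2674 and 1885 in the mutants. Whether leukocytes of any type contributed to *Ikbke* was not tested.

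All 5 NF-kappaB subunits were expressed. *Nfkb1*, a precursor of the canonical dimer, was the member with the highest normalized counts, at 1448 and 1572 in the controls against 1661 and 1480 in the mutants. *Rela*, its transactivating partner, had 789 and 862 against 789 and 839, and *Rel*, a lymphoid and myeloid subunit, had 495 and 405 against 453 and 421. For these 3 genes the groups overlapped and the log2 fold changes were 0.06, -0.02 and -0.04. Both noncanonical subunits were higher in both mutants, as were 19.6% of all genes tested. *Relb* (chromosome 7, 19606217 to 19629438) had 313 and 327 in the controls against 390 and 379 in the mutants, a log2 fold change of 0.26 ± 0.13 (SE, unadjusted p = 0.0889, adjusted p = 0.681, limma). The value moved only between 0.23 and 0.30 when each library was left out. *Nfkb2* (chromosome 19, 46304320 to 46312385) had 703 and 775 against 804 and 833, with a log2 fold change of 0.15 and an interval from -0.14 to 0.43. Of its exon bases, 11.6% overlapped the noncoding *AC114539.1* and 6.52% overlapped *Psd*, both on the opposite strand.

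Of the 4 IkappaB genes, 1 was higher in both mutants (19.6% of all genes tested) and the groups of the other 3 overlapped. *Nfkbie* (chromosome 17, 45555703 to 45563169), which encodes IkappaB-epsilon, had 301 and 262 normalized counts in the controls against 388 and 335 in the mutants, a log2 fold change of 0.36 ± 0.16 (SE, unadjusted p = 0.0700, adjusted p = 0.681, limma). The groups did not overlap, and the value stayed between 0.25 and 0.47 when each library was left out. *Nfkbia* (chromosome 12, 55489410 to 55492647), the classical inhibitor and feedback target, had 564 and 457 against 482 and 488, both mutants lying between the controls. *Nfkbib*, a slower-acting inhibitor, was at 166 and 195 against 181 and 190. *Nfkbiz*, a nuclear cofactor induced by TLRs, was at 1025 and 851 against 947 and 693, and the value of -0.21 on the log2 scale was 0.02 without mutant 2. The 9 members with a kappaB match had log2 fold changes between -0.12 (*Tnfaip3*) and 0.36 (*Nfkbie*), 4 of them above 0 and 5 below.

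The negative regulators act at several levels of the pathway. *Irak3*, a kinase-dead relative that blocks IRAK signalling and is typical of macrophages, had 332 and 249 normalized counts in the controls against 344 and 357 in the mutants, with a log2 fold change of 0.28 and a standard error of 0.18. It was 0.08 without control 2 and 0.49 without control 1. *Tnfaip3*, a ubiquitin-editing enzyme and feedback target, was spread widely in both groups, at 741 and 463 in the controls against 606 and 477 in the mutants, and its interval ran from -0.79 to 0.55. *Tnip1*, its binding partner, was at 682 and 615 against 709 and 675. *Cyld*, a deubiquitinase, was at 730 and 701 against 838 and 685, and *Tollip*, an adaptor that restrains IRAK1, at 787 and 761 against 701 and 773. In *Tnip1*, *Cyld* and *Tollip* the groups overlapped, and the fold changes of all 3 had intervals within 1.5-fold.

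Differences between the 2 control libraries were larger than those between the 2 mutants for 24 of the 36 members. The median absolute log2 difference over the members was 0.16 between controls and 0.09 between mutants. In 8050 genes with means in the same range it was 0.20 and 0.12. Control 2 was the library farthest from the other 3 for 16 members, control 1 for 8, mutant 1 for 8 and mutant 2 for 4. The direction of the fold change held for 20 members when each library was left out in turn and changed for 16. Among the 17 members without overlap between the groups, leaving out 1 library cut the log2 fold change of 12 by more than 1.5 times. Without control 2 it went to 0.08 for *Irak3*, 0.23 for *Irak4*, 0.04 for *Ripk1*, -0.06 each for *Traf2*, *Birc3* and *Irf3*, -0.02 for *Irak1* and -0.26 for *Irak2*. Without control 1 it went to 0.08 for *Nfkb2* and -0.09 for *Tab3*, without mutant 1 to -0.02 for *Map3k7* and without mutant 2 to 0.22 for *Irf5*.

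Levels were set side by side per kilobase of exon, as the mean normalized count of the 4 libraries divided by the total exon length of the gene. On that scale the members ranged from 20.5 for *Ikbke* to 309 for *Nfkbia*, with a median of 98.1, against 53.9 over all genes tested. After *Nfkbia* followed *Rela* at 266.8, *Tnip1* at 189.4, *Tab2* at 189.2, *Irf5* at 175.4 and *Nfkbiz* at 175.2. *Tnip1* and *Tab2* differed by less than the spread between libraries, as did *Irf5* and *Nfkbiz*. The lowest levels after *Ikbke* were those of *Tab3* at 38.6, *Ikbkb* at 54.8 and *Traf1* at 56.1. Total exon length includes exons of every annotated transcript, so that genes with long alternative exons such as *Ikbkb*, at 19078 bases, are placed low by this measure.

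Genes of the pathway outside the 36 were read from further lists. Of 24 receptors and first adaptors, 22 had a log2 fold change above 0 (49% of all genes) and none an unadjusted p under 0.05. The median was 0.21, and 0.06 without control 2. *Tlr9*, a receptor of DNA in endosomes, had 156 and 142 normalized counts in the controls against 195 and 204 in the mutants, and *Unc93b1*, the chaperone that brings such receptors to endosomes, had 833 and 826 against 940 and 1015. Their limma adjusted p was 0.681 each. Of 22 further cytoplasmic components, 8 were above 0 (median -0.03). *Traf4* was at 163 and 254 against 147 and 146, and *Peli2*, a ubiquitin ligase of IRAK complexes, at 862 and 645 against 876 and 957. Of 15 other inhibitors, 10 were above 0 (median 0.06), among them *Tifab* at 276 and 267 against 340 and 313 and *Tnip3* at 104 and 135 against 138 and 185. Of 6 other interferon regulatory factors, 3 were above 0 (median 0.09). *Irf4*, a lymphoid and dendritic cell factor, was at 364 and 304 against 371 and 449. None of these 4 lists held a gene at an unadjusted limma p under 0.05, against 6.68% of all genes.

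Known NF-kappaB target genes gave no single direction. Of 22 tested, 13 had a log2 fold change above 0 and 9 below, with a median of 0.21 that was 0.04 without control 2. At an unadjusted limma p under 0.05 there was 1 of the 22 in each direction, against 3.83% of all genes higher and 2.85% lower. *Plau*, the urokinase gene, had 173 and 176 normalized counts in the controls against 243 and 288 in the mutants (log2 fold change 0.60, standard error 0.17). *Csf2*, a cytokine gene for granulocyte and macrophage growth, was low throughout, at 36 and 64 against 8 and 15 (log2 fold change -2.03, standard error 0.51). Both had a limma adjusted p of 0.681. Immediate early and dissociation stress genes summed to 9587 and 12157 in the controls against 10136 and 7344 in the mutants over 11 genes, all with a fold change below 0, and *Fosb* was at 848 and 1162 against 646 and 256. Their part in the levels of target genes was not tested.

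**Figure D4:**
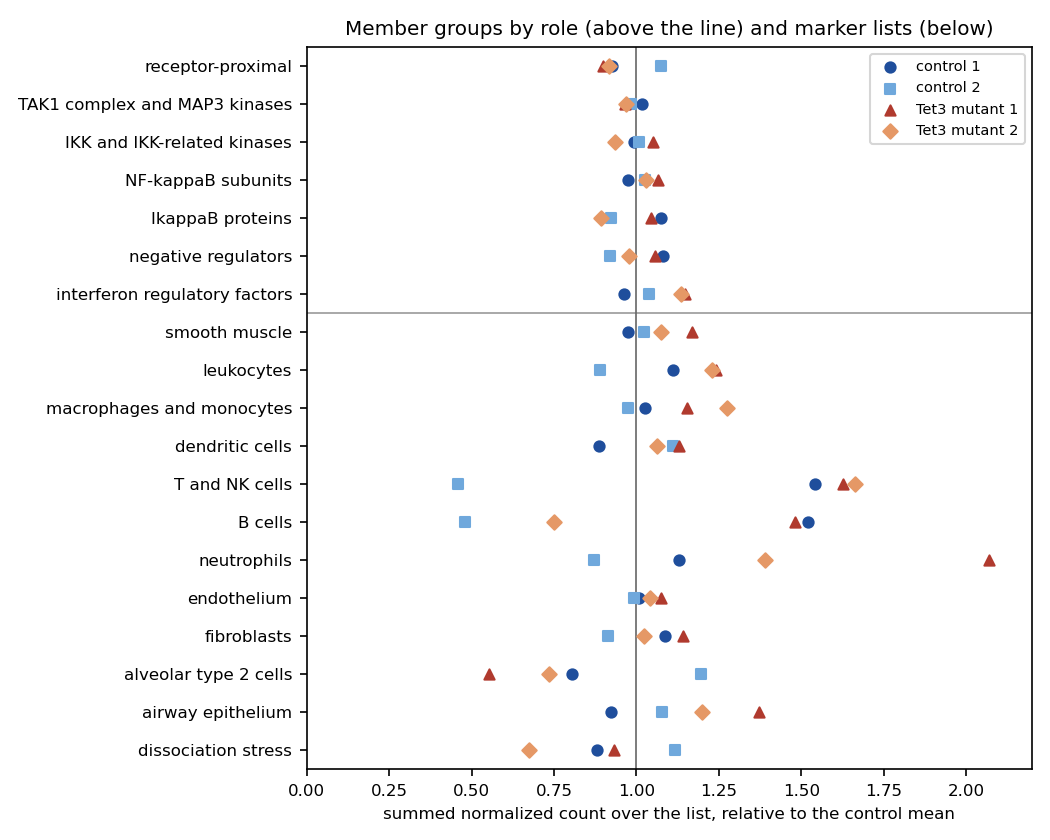
Summed normalized counts of each role group of the 36 members (above the line) and of each marker list (below the line) in each library, relative to the mean of the 2 controls (x axis). Member groups stay within 0.2 of the control mean, whereas T and NK cell, B cell and neutrophil markers spread far wider, with control 2 lowest in all 3.

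The remaining marker lists show how far cell composition could vary beside the members. Over 8 general leukocyte genes the sums were 7371 and 5904 in the controls against 8235 and 8167 in the mutants, all 8 with a log2 fold change above 0. *Cd53* was at 336 and 165 against 366 and 464, *Ptpn6* at 551 and 504 against 597 and 723, and *Itgax*, from the dendritic cell list, at 696 and 454 against 729 and 1030. Over 6 neutrophil genes the sums were 1059 and 816 against 1939 and 1304. Alveolar type 2 cell genes went the other way, at 10692 and 15893 against 7354 and 9768 over 6 genes. The 6 airway epithelial genes summed to 2134 and 2487 against 3169 and 2767, with 4 log2 fold changes above 0 and 2 below. Of the SMC markers, 9 of 10 were above 0 (median 0.46), and *Actg2* was at 101 and 158 against 237 and 311 and *Des* at 623 and 754 against 972 and 965. At an unadjusted limma p under 0.05, 4 of 6 neutrophil, 4 of 10 macrophage and monocyte and 3 of 10 SMC genes were higher in the mutants. So were 2 of 6 airway epithelial, 1 of 9 dendritic cell and 1 of 6 fibroblast genes, and 2 of 6 alveolar type 2 cell genes were lower. The shares of all genes were 3.83% higher and 2.85% lower. The general leukocyte, T and NK cell, B cell and endothelial lists held none. No gene of these lists passed an adjusted p of 0.05 in limma, and no marker tested was at 0 in any library. The part of cell composition in the members' values was not tested.

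Of the members, 11 shared exon bases with another annotated gene, 9 of them with a gene on the opposite strand. The largest such shares belonged to *Nfkbib*, with 14.5% of exon bases in *Ccer2*, and *Irf5*, followed by *Nfkb2* and by *Irak4*, with 7.87% in *Twf1*. The other members with opposite-strand overlap were *Irak2*, *Irak3*, *Irf3*, *Ikbke* and *Ripk1*, with at most 5.22% in any 1 gene. Reads that matched more than 1 gene were excluded by the authors, and the sources used here do not state whether strand was used to assign them.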

How the data were processed

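RNA was measured in 4 libraries of sorted lung SMCs, 2 per genotype, grouped by their labels. The submitters' processing notes name Trimmomatic 0.36, STAR 2.6.0c and featureCounts (Subread 1.6.0) on GRCm38. By the study's methods, reads mapping to several places or genes were excluded, and the authors scaled the counts between libraries with DESeq2. Values were deposited as normalized counts in rounded whole numbers and are treated as a score here, since the authors had already scaled them. Whole reads could not be recovered, so no count-based test was run. Depth was estimated from the gaps that scaling and rounding leave among low values.

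All 16659 genes with a mean of at least 10 were fitted together on log2(value + 1) by the lmFit and trended eBayes functions of limma 3.58.1 (R 4.3.3), two-sided, with Benjamini-Hochberg adjustment and a threshold of 0.05, after a test on simulated data. An exact permutation test of 2 against 2 libraries cannot go below 0.333. Exon lengths and overlaps came from GENCODE M21.

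Same-numbered replicates were checked for pairing (r = 0.13 between deviations from the group means across genes, 2 pairs), and the labels name no shared litter or batch. Alternatives were a pseudocount of 0.5 or 8, a minimum mean of 1 or 50, TMM factors, equal library totals, no mean-variance trend, the replicate block and each library left out. The members, 7 role groups and 5 pathway, 11 marker and 1 stress lists were chosen with earlier results of these data known. Besides the members, named genes were at most the 2 of smallest p per list, plus *Tet3*, *Xist*, *Ddx3y* and *Ptprc*. *Ccl20* and *Ly6g* were not analysed here. Of the named genes, 1 is not reported here.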

Additional observations from a re-analysis of the deposited data

How the results depend on the processing

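Under the 8 alternatives that kept all libraries, 281 of 288 member values kept their direction. With equal library totals, which moved the median of all genes from -0.01 to 0.04, the log2 fold changes of 7 members went from just below 0 to 0.0395 (*Traf3*), 0.0355 (*Tab1*), 0.0310 (*Tab2*), 0.0124 (*Rel*), 0.0275 (*Tbk1*), 0.0290 (*Rela*) and 0.0018 (*Map3k14*), and the medians became 0.03 for all members, 0.0164 for the TAK1 complex and MAP3 kinases and 0.0454 for the IKKs. No member passed the adjusted threshold under any alternative run (smallest adjusted p 0.205 with a library left out and 0.479 otherwise, limma). Without the mean-variance trend, 1 gene of the whole table passed, no member. At an unadjusted p under 0.05 the number of members that were higher was 0 with a mean of at least 1, 0 without the trend, 3 with equal totals and 0 with the replicate block, and the number that were lower was 1 with the replicate block (*Irak2*). The replicate block changed no other call, and the labels do not show that the numbers pair the animals.

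With each library left out in turn, where limma assumes that the lone library varies like the others, 0 to 2 members were higher and 0 to 3 lower at an unadjusted p under 0.05, the largest numbers coming without control 1, when 20.2% of all genes were called in this way. The groups of 21 to 30 members did not overlap, by construction more often with fewer libraries. The share of all genes under these settings is not given, so these counts are not read as a result about the members. The median over the members ranged from -0.0335 to 0.0127. By role it ranged from -0.33 to -0.0614 for receptor-proximal proteins, from -0.0724 to -0.0301 for the TAK1 complex and from -0.10 to 0.0582 for IKKs. Marker medians ranged from 0.21 to 0.73 for smooth muscle, 0.16 to 0.42 for leukocytes, 0.26 to 0.49 for macrophages, -0.0202 to 0.36 for dendritic cells, 0.13 to 2.14 for T and NK cells and -0.0272 to 0.19 for endothelium.

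The direction changed for 16 members, over log2 ranges from -1.35 to 0.21 for *Traf1*, -0.38 to 0.69 for *Ikbke*, -0.46 to 0.22 for *Tnfaip3*, -0.43 to 0.02 for *Nfkbiz*, -0.19 to 0.31 for *Map3k8*, -0.22 to 0.0856 for *Nfkbia*, -0.18 to 0.11 for *Rel*, -0.0625 to 0.23 for *Cyld*, -0.13 to 0.12 for *Traf3*, -0.0721 to 0.16 for *Nfkbib*, -0.0944 to 0.12 for *Ikbkb*, -0.0277 to 0.14 for *Nfkb1*, -0.0861 to 0.0606 for *Tab1*, -0.0832 to 0.0443 for *Rela*, -0.11 to 0.0195 for *Map3k14* and -0.0682 to 0.0263 for *Tbk1*. *Xist* ranged from -0.22 to 10.93 and *Ddx3y* from -9.60 to 0.00, the end nearest to 0 in each coming without control 2. The causes of the changes in direction among the members, the sex of the animals included, were not tested. The planned count-based test was not run, since whole reads could not be recovered from the rounded values. With 2 libraries per group, a 1.5-fold change lay inside the interval of 14 members.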
